A study of Mus musculus with 8 samples.

Results

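The cell cycle and DNA replication genes described here are 43 genes chosen by symbol: D and E cyclins, CDK inhibitors, replication and deoxynucleotide enzymes, and genes of mitosis. All 43 were among the 15210 genes with values in mouse liver. RNA was sequenced from the livers of 8 female mice of the F1-TKm30 line, which is NOG, an immunodeficient background, and carries a cDNA of HSVtk mutant clone 30 (a herpes virus thymidine kinase) driven by the enhancer and promoter of the mouse transthyretin gene, active in hepatocytes. By the series' design text the controls carried this transgene too, although the columns of the deposited table have names that begin with Wild; the transgene was not checked here. The treated group, 4 mice, was given MOCA at 0.05% for 4 weeks and the control group, also 4 mice, MOCA at 0%. MOCA is 4,4'-methylenebis(2-chlorobenzenamine), an aromatic amine used as a curing agent for polyurethane, and the route is not stated in the labels. The labels name the F1-TKm30 strain for each sample, while the treatment protocol speaks of C57BL mice. Age was 17 or 21 weeks and is not tied to single mice in the labels, so age and treatment cannot be separated here.

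A cell that leaves rest makes D cyclins, which with CDK4 and CDK6 inactivate the retinoblastoma protein and free E2F transcription factors. E2F then raises cyclin E, the MCM helicase and the enzymes that make deoxynucleotides. Later in the cycle B-MYB and FOXM1 with the MuvB subunits raise cyclin B, CDK1 and the spindle genes. Adult hepatocytes rarely divide, so transcripts of S phase and mitosis are scarce in an undisturbed liver and increase strongly after partial hepatectomy or injury, whereas D cyclins and several replication genes are transcribed at rest as well.

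Values are TMM-scaled CPM, that is, read counts relative to the library total with library sizes adjusted by edgeR's TMM method, in which 1 read was worth 0.0581 to 0.0648. Libraries held 15024945 to 17101844 reads, and each MOCA library was shallower than each control library. The 6 hepatocyte markers, led by Alb, summed to 78880 to 95380 in control and 72100 to 83280 in MOCA livers. The 7 Kupffer cell markers (276.2 to 333.6 and 282.2 to 378.8), the 6 sinusoidal endothelial markers (415.4 to 484.9 and 400.6 to 412.6), the 7 stellate cell markers (458.5 to 509.8 and 380.2 to 473.3) and the 6 bile duct markers (41.2 to 49.8 and 36.5 to 55.5) were all detected. Of 8 lymphocyte markers only Cd8a had values, of 0 to 0.194. In whole liver, fewer cells of a type and less RNA per cell cannot be told apart. A difference is the MOCA mean minus the control mean of log2(value + 1), a scale that shrinks changes of scarce transcripts. Tests were made with limma and Benjamini-Hochberg adjustment over the 12008 genes that reached a value of 1 in at least 4 libraries. The labels list the mice as separate samples, numbered 1 to 4 in each group.

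None of the 23 members that could be tested was called in MOCA livers (limma, adjusted p under 0.05; 2 had an unadjusted p under 0.05). Over all tested genes 0.666% were called, and 17.5% had an unadjusted p under 0.05. The log2 differences of the 23 were positive in 16 and negative in 7 with a median of 0.05, against a median of 0.0051 over all tested genes. Within the 43, cyclin D1 was higher in MOCA livers than in most control livers. The CDK inhibitor gene Cdkn2c was lower in every MOCA liver than in every control liver. It was the 1 tested member with this order, which held for 4.96% of all tested genes. In 1 MOCA mouse, replicate 4, most S phase and mitotic genes had their highest value. The remaining 20 members had mean values under 1 and were not tested. Their means ran up to 0.82 (Cenpf), and the lowest mean at or above 1 was 1.19 (Kif20a).

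**Figure D1:**
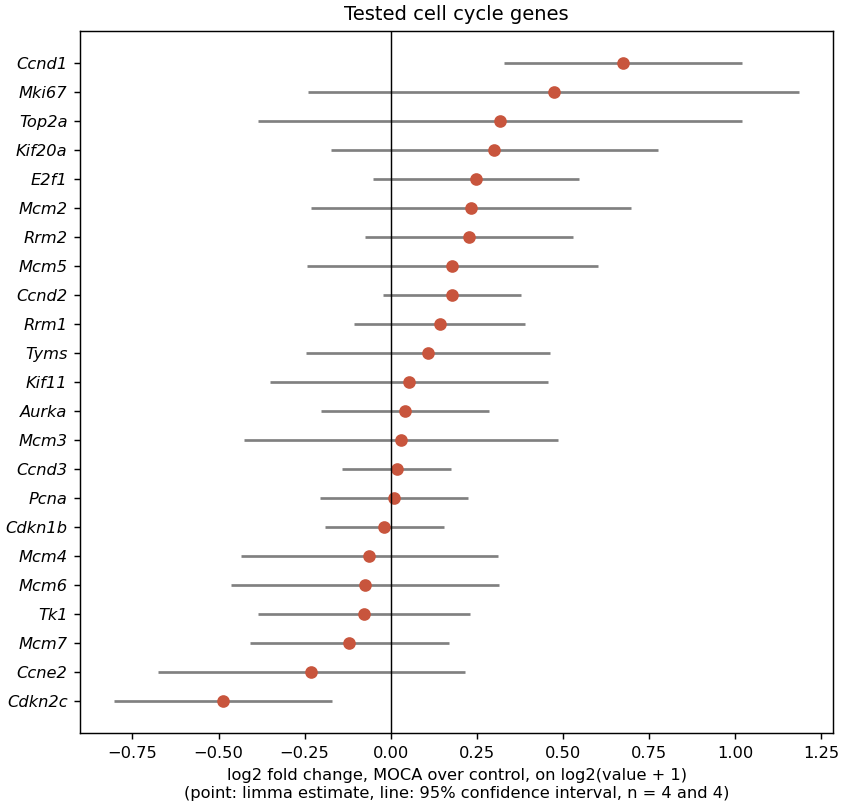
Log2 difference between MOCA and control livers (horizontal axis, on log2(value + 1)) of the 23 tested cell cycle genes, with 95% confidence intervals from limma, n = 4 and 4 mice. The intervals of Ccnd1 and Cdkn2c exclude 0 before adjustment for multiple tests, and those of the other 21 genes include it.

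Cyclin D1, the D cyclin that in hepatocytes responds to mitogens, had the smallest p among the members. Ccnd1 (chromosome 7, 144929931 to 144939925) was 32.4, 22.2, 26.2 and 24.8 in control replicates 1 to 4 and 54.9, 31.8, 47.4 and 38.7 in MOCA replicates 1 to 4. The groups overlapped in 1 place, since MOCA replicate 2 lay just below control replicate 1, and the other 3 MOCA livers lay above all controls. The means were 26.4 ± 4.33 and 43.2 ± 10.04 (SD, n = 4 each), a log2 difference of 0.67 (SE 0.16, 95% interval 0.33 to 1.02; limma adjusted p = 0.075). Ccnd1 passed the threshold without MOCA replicate 2 (log2 difference 0.81, limma adjusted p = 0.0453) and with DESeq2 on the recovered reads (0.71, adjusted p = 0.00291), and the adjusted p ran from 0.00291 to 0.193 over all alternatives. DESeq2 called 3.61% of the genes it tested, Ccnd1 alone among the members; edgeR called 0.683% and limma without a filter on low values 0.526%, none of them a member. A gene on the other strand, listed as Oraov1, shares 1100 exonic bases with Ccnd1 in GENCODE, and was 10.3 ± 0.928 in control and 9.55 ± 2.24 in MOCA livers.

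The other D cyclins differed less. Cyclin D2, Ccnd2, was 19.6 to 22.6 in control and 21.02 to 27.2 in MOCA livers, a log2 difference of 0.18 (95% interval -0.02 to 0.38). Cyclin D3, Ccnd3, was 36.2 to 42.1 and 37.8 to 41.6, with a difference of 0.02 (95% interval -0.14 to 0.18) whose sign turned with upper quartile scaling and with sample weights. The limma adjusted p were 0.341 for Ccnd2 and 0.926 for Ccnd3. Per kb of transcript, Ccnd3 had the highest level of the D cyclins in control livers, 18.8, against 7.06 for Ccnd1 and 3.31 for Ccnd2. In MOCA livers these levels per kb were 19.02, 11.6 and 3.77, which left the order as it was.

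The E cyclins, partners of CDK2 at the entry to S phase, were scarce. Ccne1 was 0.639, 0.708, 1.05 and 0.66 in control replicates 1 to 4 and 0.255, 0.322, 0.583 and 0.367 in MOCA replicates 1 to 4. Every MOCA value of Ccne1 lay below every control value, on 4 to 17 reads per library. Without a filter on low values limma gave an adjusted p of 0.163 for Ccne1 and edgeR one of 0.214. Ccne2 was 0.84 to 2.53 in control and 0.733 to 1.62 in MOCA livers, with overlapping groups (log2 difference -0.23, SE 0.20, limma adjusted p = 0.599). E2f1, the activating transcription factor of the group, was 1.22 to 1.60 in control and 1.36 to 2.29 in MOCA livers, where replicates 1 and 4 were high (log2 difference 0.25, SE 0.14, limma adjusted p = 0.378).

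Of the CDK inhibitors, Cdkn1b, which encodes p27 and holds CDK2 inactive in resting cells, was 17.7 to 20.8 in control and 18.4 to 20.1 in MOCA livers. Its log2 difference was -0.02 (95% interval -0.19 to 0.15; limma adjusted p = 0.926), and the sign turned with equal column sums and with sample weights. Cdkn2c (chromosome 4, 109660876 to 109667189) encodes p18, an inhibitor of CDK4 and CDK6. It was 2.73, 2.51, 2.47 and 2.40 in control replicates 1 to 4 and 2.10, 1.42, 0.972 and 1.71 in MOCA replicates 1 to 4. Every MOCA value was below every control value, which held for 4.96% of all tested genes and for no other tested member; the reverse order held for 5.5% of tested genes and no tested member. The means were 2.53 ± 0.143 and 1.55 ± 0.476 (SD, n = 4 each), a log2 difference of -0.49 (SE 0.14, 95% interval -0.80 to -0.17), with a limma adjusted p of 0.132.

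**Figure D2:**
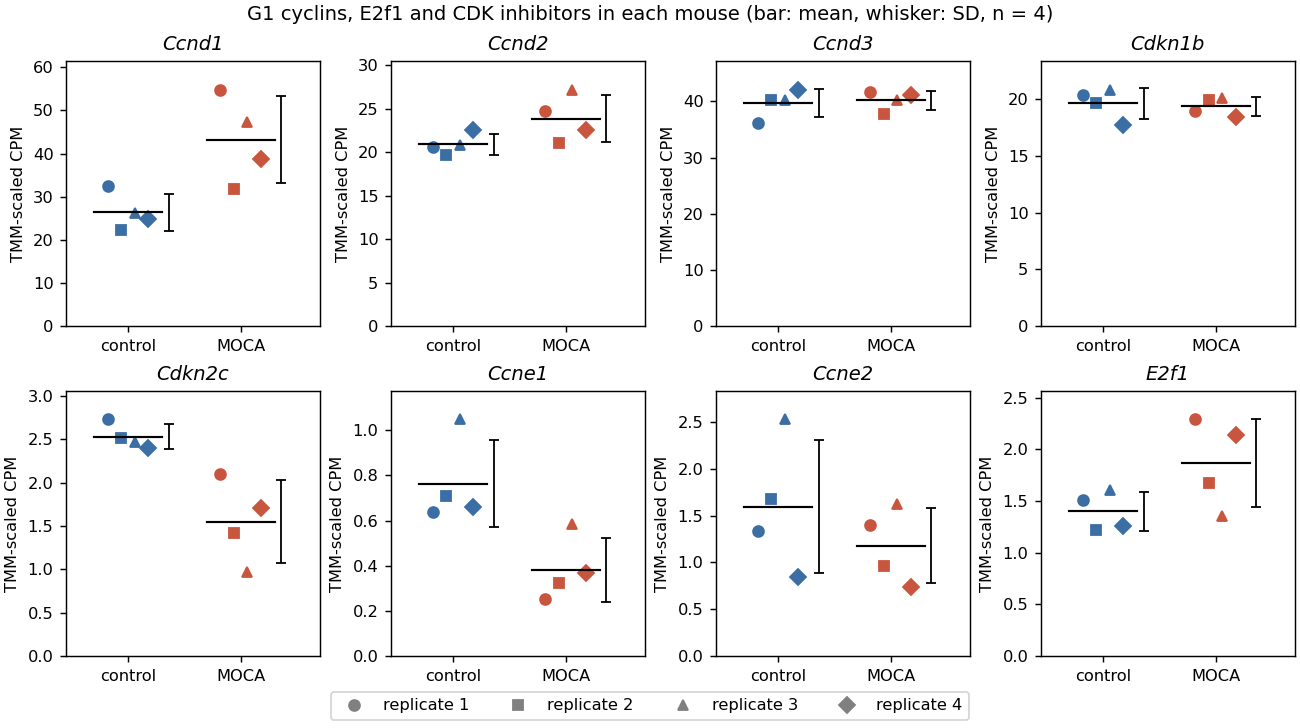
TMM-scaled CPM (vertical axes) in each mouse of 6 G1 genes and 2 CDK inhibitors, with symbols for replicates, bars for means and whiskers for SD (n = 4 per group). Ccnd1 is higher in 3 of 4 MOCA livers than in all controls, and Ccnd3 and Cdkn1b lie at the same height in both groups. Cdkn2c and Ccne1 are lower in 4 of 4, as are 4.31% of all 15210 genes.

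The replicative helicase is a ring of 6 MCM subunits loaded on DNA in G1. In control livers the 6 genes had unequal levels per kb of transcript: 4.81 for Mcm7, 1.59 for Mcm6, 1.18 for Mcm4, 0.948 for Mcm3, 0.669 for Mcm2 and 0.473 for Mcm5. Mcm7 thus stood above the other 5, and it shares 64 exonic bases with Cops6 and 321 with Ap4m1 on the opposite strand; no source used here gives the strand setting of the authors' counting. None of the 6 was called; Mcm2, Mcm3 and Mcm5 had positive log2 differences and Mcm4, Mcm6 and Mcm7 negative ones (median -0.02; smallest limma adjusted p 0.61).

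The MCM genes varied between single mice more than between groups. Mcm2 was 3.14, 1.87, 2.04 and 1.98 in control replicates 1 to 4 and 2.55, 2.06, 2.14 and 5.01 in MOCA replicates 1 to 4. Mcm5 was 1.63, 1.61, 1.23 and 1.92 in the controls and 1.53, 1.35, 1.75 and 3.48 in the MOCA livers. MOCA replicate 4 was the highest of the 8 livers for Mcm2, Mcm3, Mcm4, Mcm5 and Mcm6, at 1.42 to 2.22 times the control mean, while MOCA replicate 1 was the lowest for Mcm4, Mcm6 and Mcm7 (2.80, 3.12 and 9.35). Without MOCA replicate 4 all 6 MCM means were lower in MOCA than in control livers. Those of Mcm2 (2.25 against 2.26) and Mcm5 (1.54 against 1.60) differed little. The log2 difference without that mouse turned to -0.027 for Mcm5 and stayed positive for Mcm2, at 0.010.

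**Figure D3:**
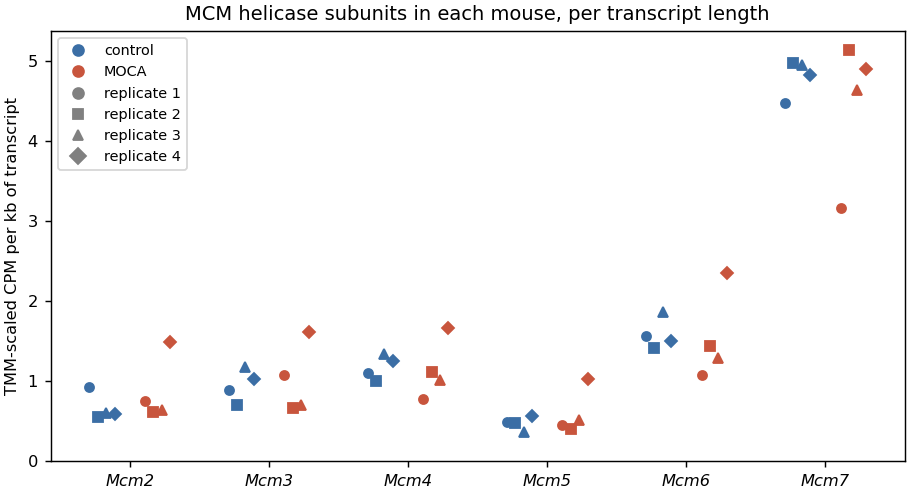
TMM-scaled CPM per kb of transcript (vertical axis) of the 6 MCM genes in each of the 4 control and 4 MOCA livers. MOCA replicate 4 (diamond) is the highest point for Mcm2 to Mcm6, and Mcm7 lies above the other subunits in all 8 livers.

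Pcna, the sliding clamp of DNA polymerases, was 15.6 to 20.4 in control and 16.5 to 19.8 in MOCA livers, with a log2 difference of 0.0087 (95% interval -0.21 to 0.22; limma adjusted p = 0.975) whose sign turned with upper quartile scaling. Gins2, a subunit of the GINS complex that activates the helicase, was 0.123 to 0.48 and 0.322 to 0.509, on 2 to 8 reads per library. Gins2 shares 2758 exonic bases with Gse1 on the opposite strand, whose means were 17.96 in control and 19.4 in MOCA livers. Among the enzymes of deoxynucleotide supply, thymidylate synthase was the most abundant transcript of all 43 genes per kb, at 25.5 in control livers. Tyms was 99.1, 54.8, 96.6 and 72.1 in control replicates 1 to 4 and 80.2, 79.04, 84.6 and 95.7 in MOCA replicates 1 to 4, so the controls spread more widely than the MOCA livers (limma adjusted p = 0.775).

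Tk1, the cytosolic thymidine kinase of dividing cells and the host counterpart of the transgene's enzyme, was 10.4 to 14.6 in control and 10.4 to 16.1 in MOCA livers. Its log2 difference was -0.08 (95% interval -0.38 to 0.23; limma adjusted p = 0.825). The large subunit of ribonucleotide reductase, Rrm1, was 7.03 to 9.42 and 7.64 to 10.2, and the small subunit Rrm2, which is limited to S phase, was 0.84 to 1.51 and 1.21 to 1.71. Their log2 differences were 0.14 (SE 0.11) and 0.23 (SE 0.14), with limma adjusted p of 0.553 and 0.425.

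Of the 23 mitotic members 5 could be tested: Mki67, Top2a, Aurka, Kif11 and Kif20a. All 5 log2 differences were positive and none was called. Mki67, the proliferation antigen Ki-67 (chromosome 7, 135689784 to 135716361), was 5.87, 3.35, 2.90 and 2.82 in control replicates 1 to 4 and 5.28, 3.93, 2.98 and 12.4 in MOCA replicates 1 to 4. MOCA replicate 4 stood alone at 3.32 times the control mean, and the other 3 MOCA livers lay within the range of the controls. Its reads, 203, give an exact Poisson 95% interval of 10.7 to 14.2 for counting error only, against 4.78 to 7.13 for control replicate 1, the next highest liver. The means of 3.73 ± 1.44 and 6.15 ± 4.27 (SD, n = 4 each) differed by 0.47 on the log2 scale (SE 0.32; limma adjusted p = 0.486). Without MOCA replicate 4 the MOCA mean of Mki67 was 4.06 and the log2 difference 0.12 (limma adjusted p = 0.855).

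Top2a, the topoisomerase that untangles replicated chromosomes, was 3.31, 1.87, 0.987 and 0.72 in control replicates 1 to 4 and 2.67, 1.16, 1.43 and 4.28 in MOCA replicates 1 to 4. Control replicate 1 and MOCA replicates 1 and 4 were the high livers, and the groups overlapped (log2 difference 0.32, SE 0.32, limma adjusted p = 0.65; without MOCA replicate 4 it was 0.07). The spindle motors Kif11 and Kif20a reached 2.87 and 2.63 in MOCA replicate 4, against 1.10 to 1.80 and 0.617 to 1.53 in the other 7 livers. Cdc23, on the opposite strand, shares 1271 exonic bases with Kif20a. Cdc23 was 9.22 in MOCA replicate 4 and 6.64 to 8.21 in the other 7 livers. Whether its reads entered the Kif20a values was not tested. The mitotic kinase Aurka was 1.29 to 1.44 in control and 1.23 to 1.59 in MOCA livers.

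The other 18 mitotic members were below the minimum for testing, with 0 to 34 reads per gene and library. Their summed value was 10.2, 7.47, 6.79 and 4.74 in control replicates 1 to 4 and 11.7, 7.29, 7.65 and 18.2 in MOCA replicates 1 to 4. MOCA replicate 4 was again the highest, and MOCA replicates 2 and 3 lay among the controls. The exact Poisson 95% interval of the sum in MOCA replicate 4 was 16.2 to 20.4, and in MOCA replicate 1, the next highest, 10.1 to 13.5. The mean was higher in MOCA than in control livers for 16 of the 18, and for 14 without MOCA replicate 4; over all 15210 genes it was higher for 51.2%.

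**Figure D4:**
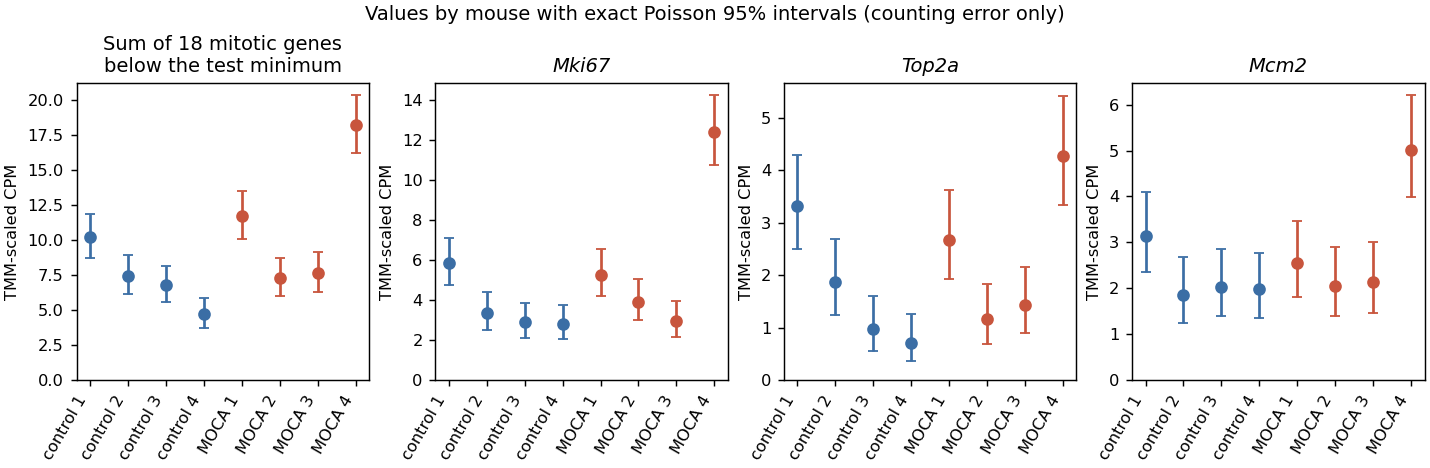
TMM-scaled CPM (vertical axes) in each liver for the summed 18 mitotic genes below the test minimum and for Mki67, Top2a and Mcm2, with exact Poisson 95% intervals that cover counting error only. MOCA replicate 4 is the highest point in all 4 panels, at 18.2, 12.4, 4.28 and 5.01.

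Among these scarce genes, cyclin A2 and the kinetochore motor Cenpe had groups that did not overlap. Ccna2, the cyclin of S phase and G2, was 0.465, 0.515, 0.494 and 0.24 in control replicates 1 to 4 and 0.955, 0.58, 0.907 and 1.28 in MOCA replicates 1 to 4. It had 4 to 21 reads per library, an edgeR log2 difference of 1.11 and an adjusted p of 0.17 over all listed genes (limma without a filter 0.143). Cenpe, which carries chromosomes to the spindle equator, was 0.407, 0.129, 0.123 and 0.3 in the controls and 0.764, 0.451, 0.454 and 1.28 in the MOCA livers. The edgeR log2 difference of Cenpe was 1.58 with an adjusted p of 0.171. Of the 20 untested members these 2 were higher in all MOCA than in all control livers and Ccne1 was lower in all; among all untested genes the shares were 2.47% and 1.87%. With Cdkn2c the 43 thus held 2 genes of each kind, close to the shares of 4.86% and 4.31% over all 15210 genes. Exosc9, which shares 510 exonic bases with Ccna2 on the opposite strand, was 3.42 ± 0.592 in control and 4.39 ± 0.622 in MOCA livers. EdgeR on all 15210 listed genes called none of the 43 (5 at an unadjusted p under 0.05, against 15.4% of all genes), and 0.513% of all genes.

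The remaining mitotic genes were low in both groups. Cyclin B1 was 0.988, 0.0644, 0.247 and 0.06 in control replicates 1 to 4 and 0.636, 0.258, 0.13 and 0.977 in MOCA replicates 1 to 4, so its 2 highest livers were control replicate 1 and MOCA replicate 4. Its partner kinase Cdk1 was 0.322 to 0.813 in control livers and 0.389 to 1.22 in MOCA livers. Cyclin B2 had a lower mean in MOCA livers (0.646 ± 0.238 against 0.805 ± 0.495), as did Foxm1, the transcription factor of G2 genes (0.71 ± 0.349 against 0.733 ± 0.065), with overlapping groups for both. The checkpoint kinase gene Bub1b, the spindle assembly factor Tpx2, survivin (Birc5) and the kinetochore protein Cenpf reached 1.65, 1.65, 1.10 and 2.08 in MOCA replicate 4, 3.77, 4.96, 3.20 and 3.61 times their control means. Plk1 (0.36 to 0.802 and 0.451 to 1.27), Nusap1 (0.258 to 0.813 and 0.518 to 1.04), Aurkb (0 to 0.58 and 0 to 0.672) and Bub1 (0.12 to 0.185 and 0.0645 to 0.489) act at the spindle and overlapped between the groups. Of the regulators of mitotic exit, the anaphase activator Cdc20 was 0.0617 to 0.465 and 0.258 to 0.827, and the ubiquitin-conjugating enzyme Ube2c was 0.12 to 0.708 and 0.389 to 0.636. Gtse1 and Psrc1, also known as p53 targets, were 0.18 to 0.322 and 0.193 to 0.55, and 0 to 0.185 and 0.0636 to 0.194; a value of 0 allows up to 0.18 to 0.194 in the libraries concerned (3 reads, counting error only).

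Of all 43 members, 25 had their single highest value in MOCA replicate 4, or 58.1%, against 17.4% of all 15210 genes; this count was made after the values were seen. Of the mitotic members it was 17 of 23, and of the G1 cyclins, E2f1 and CDK inhibitors it was 0. The other 7 livers held the highest value of 1 to 5 members each. With columns scaled to equal sums the count was 28 of 43 and the share of all genes 25.2%. In the same liver the Kupffer cell markers had their highest sum (378.8, against 276.2 to 333.6 in the other 7), as did the erythroid markers (528.2). The hepatocyte, bile duct and sinusoidal endothelial markers had their lowest sums there (72100, 36.5 and 400.6). The 7 erythroid markers with values summed to 255.1 to 445.4 in control and 475 to 528.2 in MOCA livers, led by Hba-a1, with the erythroid transcription factor Klf1 at 2.69 and 2.52 in the group means. The 5 neutrophil and myeloid precursor markers with values summed to 0.679 to 1.74 in control and 0.7 to 1.81 in MOCA livers. The part of these cell types in the mitotic values was not tested.

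**Figure D5:**
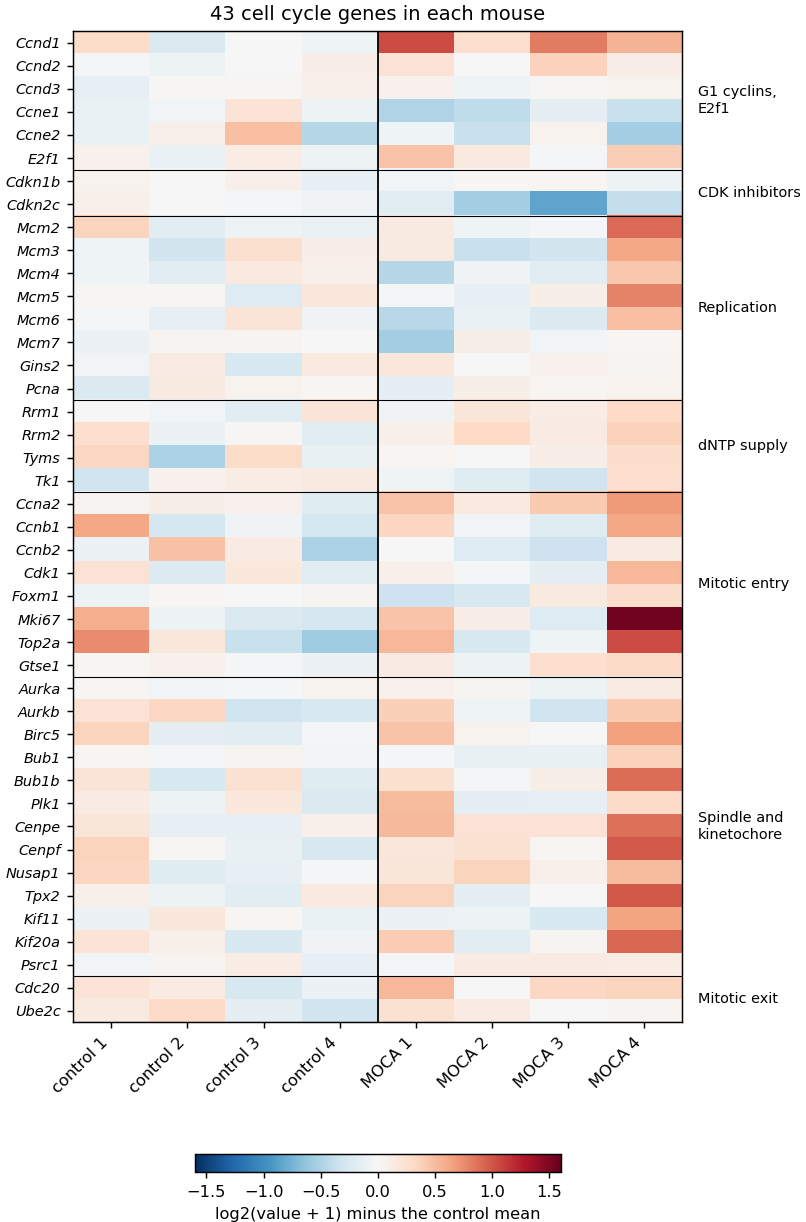
Deviation of log2(value + 1) from the control mean (colour) for the 43 genes (rows, by role) in the 8 livers (columns). MOCA replicate 4 is red for most replication and mitotic genes, while Ccnd1 is red in all 4 MOCA livers and Cdkn2c and Ccne1 are blue in all 4.

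The promoters of these genes are shown because many members were high together in MOCA replicate 4, and cell cycle promoters are known for a few short elements. RefSeq (GRCm38.p6) gave a promoter for 33 of the 43, and the 250 bases before the most upstream start in that table were searched on both strands for the CCAAT box (CCAAT), which binds NF-Y, the cell cycle genes homology region (TTTGAA or TTCGAA), which binds the DREAM and MuvB complexes, and an E2F site (TTCCCGC, also with the letters TTGGCGC, with TTCGCGC, or with TTGCCGC). Matches may overlap, including those of the same element on opposite strands. By the GENCODE gene coordinates, the windows of E2f1, Cdkn2c and Mcm7 lay wholly inside the gene (the RefSeq start was 433 to 539 bases after the gene's start), so they are left out of what follows; the other 30 starts lay at -60 to 134 bases from it. For 28 of the 33, bases just after the start were found in a GENCODE transcript of the gene. Shown are the 5 tested members with a promoter in RefSeq that were highest in MOCA replicate 4 at 1.91 to 3.32 times the control mean, with matches in capitals: Mki67 at chr7:135716380-135716629 on the minus strand, Top2a at chr11:99024190-99024439 on the minus strand, Mcm2 at chr6:88898781-88899030 on the minus strand, Mcm5 at chr8:75109259-75109508 on the plus strand and Kif11 at chr19:37376132-37376381 on the plus strand. They were chosen after their values were seen.
Mki67: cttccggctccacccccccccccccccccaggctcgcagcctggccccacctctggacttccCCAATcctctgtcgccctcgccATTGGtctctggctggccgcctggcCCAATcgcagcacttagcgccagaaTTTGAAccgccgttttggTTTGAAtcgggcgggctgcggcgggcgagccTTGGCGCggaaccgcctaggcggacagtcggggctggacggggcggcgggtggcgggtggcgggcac
Top2a: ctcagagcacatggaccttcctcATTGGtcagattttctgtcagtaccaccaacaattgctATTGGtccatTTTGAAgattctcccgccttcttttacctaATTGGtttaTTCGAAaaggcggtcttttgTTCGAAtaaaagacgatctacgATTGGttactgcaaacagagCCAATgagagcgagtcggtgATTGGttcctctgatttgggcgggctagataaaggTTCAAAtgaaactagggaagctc
Mcm2: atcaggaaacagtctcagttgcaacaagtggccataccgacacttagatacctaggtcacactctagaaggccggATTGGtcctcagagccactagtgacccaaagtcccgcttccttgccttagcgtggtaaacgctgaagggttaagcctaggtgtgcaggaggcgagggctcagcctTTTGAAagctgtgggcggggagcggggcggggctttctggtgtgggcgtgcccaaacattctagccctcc
Mcm5: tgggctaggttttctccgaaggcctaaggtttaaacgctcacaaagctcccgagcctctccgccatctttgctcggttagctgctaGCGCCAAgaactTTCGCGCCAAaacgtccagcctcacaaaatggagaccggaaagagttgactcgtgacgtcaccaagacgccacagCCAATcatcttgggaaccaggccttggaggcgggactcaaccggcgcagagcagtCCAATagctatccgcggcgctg
Kif11: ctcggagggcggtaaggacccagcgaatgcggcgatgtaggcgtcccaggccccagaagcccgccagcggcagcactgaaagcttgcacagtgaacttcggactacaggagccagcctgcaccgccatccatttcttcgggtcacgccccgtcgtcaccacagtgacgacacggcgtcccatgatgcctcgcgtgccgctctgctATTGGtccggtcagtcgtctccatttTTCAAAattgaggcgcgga

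Each of the 5 held at least 1 CCAAT box, Top2a had 6, and Mcm5 alone lacked the homology region and had 3 E2F matches. Its TTCGCGC match overlaps the GCGCCAA match that follows it. Among the 18 mitotic members with a promoter, 88.9% held a CCAAT box, 44.4% the homology region and 16.7% an E2F match. Among the 9 replication and deoxynucleotide members these shares were 77.8%, 11.1% and 44.4%. Over the promoters of all 27025 genes they were 34.5%, 17.5% and 8.03%, and over the 11395 with a value in these livers 36.2%, 12.6% and 13.3%, with no check of their starts against GENCODE. Bub1, Cenpf and Aurka, also highest in MOCA replicate 4, each held 2 CCAAT boxes and neither other element, and Birc5 and Nusap1 held none of the 3. In the same window Ccnd3, Ccne1, Tyms and Tk1 held no match. A match is a run of letters and not a measured binding site. Whether these elements bear on the values in MOCA replicate 4 was not tested.

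Other genes of the cycle, from lists drawn up beside the 43, gave 1 call. Of 148 with values 116 were tested, 1 rose, none fell (0.4% and 0.266% of all tested genes) and 115 were not called, with a median log2 difference of 0.0093. The gene that rose was Ccng1, cyclin G1, a p53 target that drives no known cycle phase, at 43.6 to 48.9 in control and 83.1 to 99.9 in MOCA livers (log2 difference 0.98, SE 0.08, limma adjusted p = 0.000217). Cyclin C, Ccnc, a partner of the Mediator kinase, was 9.38 to 13.8 and 17 to 19.3 (limma adjusted p = 0.0685). Cdk2, the kinase of cyclins E and A, was 13.5 to 15.4 in control and 10.04 to 12.3 in MOCA livers, so the groups did not overlap, with a log2 difference of -0.36 (SE 0.09, limma adjusted p = 0.0915). DESeq2 called Ccng1, Ccnc and Cdk2.

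By list, limma called 0 of 21 tested G1/S kinases, pocket proteins and E2F genes, of which Cdk2 and Tfdp2, a dimer partner of E2F, had the smallest p (Tfdp2 log2 difference -0.31, adjusted p = 0.183). It called 0 of 34 origin and fork genes, led by the DNA ligase Lig1 (-0.44, adjusted p = 0.167) and the origin subunit Orc4 (0.23, adjusted p = 0.175). None of 14 spindle, kinetochore and condensin genes was called either, led by the checkpoint gene Mad2l1 (0.34, adjusted p = 0.208) and Ect2, an activator of cytokinesis (0.42, adjusted p = 0.266). The lists of the anaphase-promoting complex (14 tested; Fzr1 -0.22 and Anapc10 0.40, limma adjusted p = 0.185 and 0.223), deoxynucleotide genes (8; Slbp -0.23 and Samhd1 0.22, 0.201 and 0.29; Slbp binds histone mRNA and makes no deoxynucleotides), G2/M kinases and phosphatases (5; Cdc25b 0.41 and Wee1 0.24, 0.2 and 0.375) and DREAM and MuvB subunits (5; Lin9 -0.33 and Lin54 -0.16, 0.324 and 0.438) held no call. Of the other CDK inhibitors 3 were tested, among them Cdkn2d (log2 difference 0.11, limma adjusted p = 0.777). The best known, Cdkn1a, which encodes p21, was 65.4, 74.3, 38.3 and 64.5 in control replicates 1 to 4 and 160, 102.9, 116.4 and 47.2 in MOCA replicates 1 to 4 (limma adjusted p = 0.266). MOCA replicate 4, with the highest Mki67, had the lowest Cdkn1a of the MOCA livers. The lowest Cdkn1a of all livers was in control replicate 3, where Mki67 was 2.90. The highest Cdkn1a was in MOCA replicate 1, where Mki67 was 5.28. A link between Cdkn1a and Mki67 was not tested.

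Among these further genes the highest value fell in MOCA replicate 4 for 51 of the 148 (34.5%), against 17.4% of all genes, and the lists differed. It did so for 17 of 29 spindle, kinetochore and condensin genes, 16 of 43 origin and fork genes, 4 of 8 deoxynucleotide genes, 4 of 9 G2/M genes and 5 of 14 genes of the anaphase-promoting complex. It did so for 4 of 22 G1/S genes, 1 of 12 atypical cyclins, 0 of 5 other CDK inhibitors and 0 of 6 DREAM and MuvB genes. The sum of these 6 was lowest there (109, against 117.7 to 131.6 in the other 7 livers). Most of that sum was 1 gene, Rbbp4, at 84.4 there and 90.5 to 102.7 in the other 7 livers. The 29 spindle, kinetochore and condensin genes outside the 43 summed to 55.8 to 66.4 in control livers and to 65.1, 62, 60.6 and 81.8 in MOCA replicates 1 to 4. The 43 origin and fork genes outside the members summed to 212.4 to 221.3 in control livers and to 199.9, 214.4, 216.1 and 245.9 in MOCA replicates 1 to 4. In these 2 lists MOCA replicate 4 lay above all controls; the other 3 MOCA livers lay within the control range, except that replicate 1 was below it for the origin and fork genes.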

How the data were processed

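RNA from the livers of 8 mice was measured, 4 control and 4 MOCA. Per the labels' protocols, directional libraries were built from 200 ng of RNA after removal of rRNA. The submitters' processing notes name mm10 and the tools edgeR, RSEM, Bowtie2 and Trimmomatic 0.38, without roles. The authors deposited 1 table of scaled signal per gene, with 1 column per mouse. Dividing by the value of 1 read made 100% of values whole within 0.001, the scale equalled the TMM scale recomputed with edgeR 4.0.16 (largest relative difference 0), and whole reads were recovered.

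The values were tested with limma 3.58.1 in R 4.3.3 (lmFit, eBayes with trend, two-sided) on log2(value + 1) for genes that reached 1 in at least 4 libraries. This is a log-scale test on normalised values. The edgeR test on all listed genes and the counts of the mouse with the highest value were chosen after seeing the data. EdgeR's quasi-likelihood test and DESeq2 1.42.0 on recovered reads were alternatives; edgeR called 82 of the 12008 tested genes against 80 by limma. On simulated reads for MOCA against control over 12008 genes, limma recovered 86% of 200 genes changed 2-fold, with 9 false calls. The 200 were drawn at random from all tested genes, so the share does not hold for the scarce members. The members and lists were chosen with earlier results of these data known. All 43 members may be named. Of each further list the called genes and the 2 with the smallest p are named. Rbbp4 is named for its share of a list's sum and Cdc23 for its overlap with Kif20a. Lengths are those of the longest APPRIS principal transcript in GENCODE M21, and coordinates are on mm10 (GRCm38). Replicate numbers gave no sign of pairing the mice: correlations of deviations of same-numbered mice were -0.07, -0.0014, 0.04 and -0.04. Those of differently numbered mice ran from -0.16 to 0.21. Such correlations cannot exclude a pairing. A chi-square of replicate pairs over genes was 12.6 to 27.2 per degree of freedom, so replicates differed beyond counting noise.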

Additional observations from a re-analysis of the deposited data

Results flagged for a closer look

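In 86 groups of 4 mice (43 genes in 2 groups), 7 values (8.14%) stood apart from the other 3 of their group by Dixon's test at the 95% level. For independent, normally distributed values chance gives about 1 in 20. The 86 groups share the same 8 mice and some rest on few reads, so 8.14% cannot be judged against that rate. Of the 7 values, 4 were in MOCA replicate 4: Mcm2 at 5.01 (others 2.06 to 2.55), Bub1 at 0.489 (others 0.0645 to 0.127), Cenpf at 2.08 (others 0.583 to 0.838) and Kif11 at 2.87 (others 1.10 to 1.35). Mcm2 was also high in control replicate 1, at 3.14 against 1.87 to 2.04. Ccne1 was high in control replicate 3, at 1.05 against 0.639 to 0.708. Psrc1 was low in MOCA replicate 1, at 0.0636 against 0.183 to 0.194, which rests on 3 or fewer reads per library.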

How the results depend on the processing

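With equal column sums 171 genes were called in place of 80 (132 higher and 39 lower, against 48 and 32), with upper quartile scaling 45 higher and 51 lower, with DESeq2 425, at an adjusted p under 0.01 13, and without each mouse in turn 28 to 77. Among the 43 members the count of 0 became 1, Ccnd1, with DESeq2 and without MOCA replicate 2 (0 to 1 without each mouse). Of the other cell cycle genes 2 were called with equal column sums and 3 with DESeq2, in place of 1. No alternative scaling moved the median log2 difference of all genes by 0.1 or more. With the replicate number as a block, 30 genes and 1 member, Ccnd1, were called. The correlations gave no sign that the numbers paired the mice, but cannot exclude it.

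Of the 23 tested members 12 kept their sign under all alternatives that tested them. Signs turned for Ccnd3 with upper quartile scaling (-0.00030) and sample weights (-0.0040), for Pcna with upper quartile scaling (-0.0086), for Cdkn1b with equal sums (0.032) and sample weights (0.011), and for Mcm3 with sample weights (-0.076). Leaving out each mouse gave log2 differences of -0.025 to 0.046 (Ccnd3), -0.065 to 0.0086 (Cdkn1b), -0.17 to 0.16 (Mcm3), -0.23 to 0.068 (Mcm4), -0.027 to 0.28 (Mcm5), -0.26 to 0.048 (Mcm6), -0.19 to 0.024 (Mcm7), -0.068 to 0.063 (Pcna), -0.062 to 0.22 (Tyms), -0.19 to 0.0028 (Tk1) and -0.14 to 0.15 (Kif11). The cause was not tested. Members with a mean under 1 rest on up to 34 reads per library, which limits what can be detected.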
